A study of Mus musculus with 12 samples.

Results

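The genes described here are 3 receptors of the epidermal growth factor (EGF) receptor family and 6 of their ligands, in mouse pre-iPSCs exposed to small molecules. The members were taken by gene symbol. The receptors are Egfr, Erbb2 and Erbb3, the ligands that bind EGFR are Areg, Ereg, Hbegf, Tgfa and Btc, and Nrg1 encodes neuregulin 1, a ligand of ERBB3. All 9 were found among the 20325 genes in the files. Pre-iPSCs are cells halted part of the way from fibroblasts to induced pluripotent stem cells; the study derived them as clonal lines from embryonic fibroblasts with a Nanog-GFP reporter, transduced with retroviruses for Oct4, Sox2, c-Myc and Klf4, and GFP-negative. Which line was sequenced is not stated in the sources used here, so the 12 libraries may come from a single clone. RNA was sequenced on day 2, after 48 h of treatment, in 4 conditions of 3 biological replicates named A, B and C. The conditions were DMSO, the solvent control; AA, ascorbic acid at 50 µg/ml; 2i, the MEK inhibitor PD0325901 at 1 µM with the GSK inhibitor CHIR99021 at 3 µM; and AA+2i, all of these together. Every condition shared the reprogramming transgenes and an ESC medium with serum and LIF, and the cells had been grown on irradiated feeders but were treated without that layer.

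EGFR and its relatives are tyrosine kinases at the cell surface that pair with each other when a ligand binds. Their ligands are made as membrane-bound precursors, which are cut loose by ADAM proteases, and ERBB2 has no known ligand of its own whereas ERBB3 has little kinase activity and signals through its partners. The paired receptors feed the MEK and ERK kinase cascade, which PD0325901 stops at MEK, and the PI3-kinase pathway. Transcription of several EGFR ligand genes is known to respond to growth factor signalling. Only RNA was measured here, so receptor protein, ligand release and phosphorylation were not analysed here.

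The libraries held 16173322 to 54392719 expected counts, with DMSO B and AA B the deepest. Expression levels are given as TPM, a unit scaled for transcript length and for the total of each library, which allows genes to be compared. Differences between conditions are log2 fold changes of expected counts from edgeR's quasi-likelihood test on 13400 genes, each of which reached 10 counts in 3 or more libraries. A gene was said to rise or fall where its Benjamini-Hochberg adjusted p was below 0.05. All 9 genes passed the count filter, but Btc did so through DMSO A, DMSO B and AA B, and Nrg1 through the 6 DMSO and AA libraries. In bulk RNA, fewer cells that express a gene and less RNA per cell cannot be told apart. DMSO A and AA A differed most from the other libraries in how counts depended on GC content, and the values are given beside the genes concerned.

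In DMSO, Egfr was the most abundant member at 59.3 ± 22.4 TPM (SD, n = 3), above Erbb2 at 16.2 ± 14.4, Areg at 14.5 ± 2.19 and Erbb3 at 8.25 ± 4.61, whose ranges overlapped from each to the next. Hbegf at 3.16, Tgfa at 3.07, Nrg1 at 2.93 and Ereg at 1.64 TPM formed a lower level, again with neighbouring ranges that overlapped. Btc was lowest at 0.567 ± 0.26 TPM. With AA+2i the order changed. Egfr at 14.6 ± 5.41, Erbb3 at 10.9 ± 3.43 and Erbb2 at 8.84 ± 1.62 TPM had overlapping neighbours, Areg at 3.59 and Tgfa at 3.44 TPM overlapped too, and Nrg1 was now the lowest at 0.0967 ± 0.0379 TPM. The fourth receptor of the family, Erbb4, had a mean of at most 0.0233 TPM in any condition and was not tested.

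**Figure D1:**
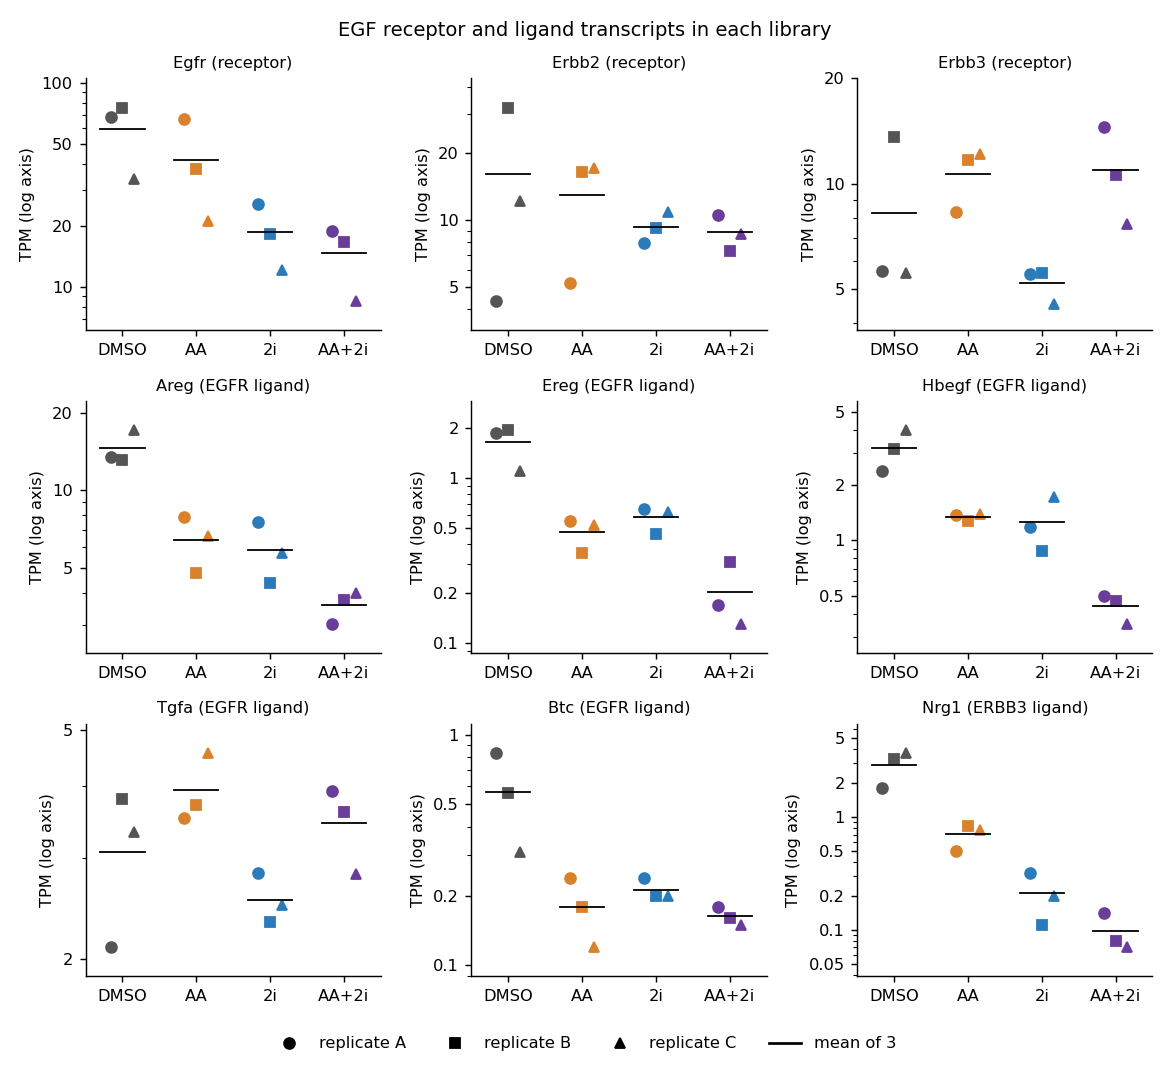
TPM of the 9 genes on log axes, with 1 point per library (shape for replicate A, B or C), the conditions DMSO, AA, 2i and AA+2i along the horizontal axis and a bar at the mean of 3. Egfr lies between 8.51 and 18.75 TPM in AA+2i and between 33.82 and 75.82 in DMSO, Nrg1 descends from 1.81 or more in DMSO to 0.14 or less in AA+2i, and the Tgfa points of AA+2i lie among or just above those of DMSO.

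The comparison of the combined treatment with DMSO asked how far the whole set moved after 48 h. With AA+2i, 6 of the 9 genes fell, namely Egfr, Areg, Ereg, Hbegf, Btc and Nrg1, against 8.34% of all tested genes called in either direction and 4.41% called lower. None rose, against 3.93% of tested genes called higher. The 6 falls ran from 2.84-fold for Btc to 25.9-fold for Nrg1, and in each of the 6 the TPM of all 3 AA+2i libraries lay below those of all 3 DMSO libraries, as it did for 22.5% of tested genes. Erbb2, Erbb3 and Tgfa were not called. The median log2 fold change of the 9 genes was -1.80, beside -0.02 over all tested genes. The members were chosen with earlier results of these data known. The tested ligands outside them were at -0.28 for Egf, 0.24 for Epgn and 0.18 for Nrg4. Without the B libraries of all 4 conditions none of the 6 was called, and only 18 of all genes were. Btc and Nrg1 passed the count filter only through libraries without 2i. Where each library needed 10 counts, a filter that removes Ereg, Btc and Nrg1, the members called were Egfr, Areg and Hbegf, among 729 genes.

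**Figure D2:**
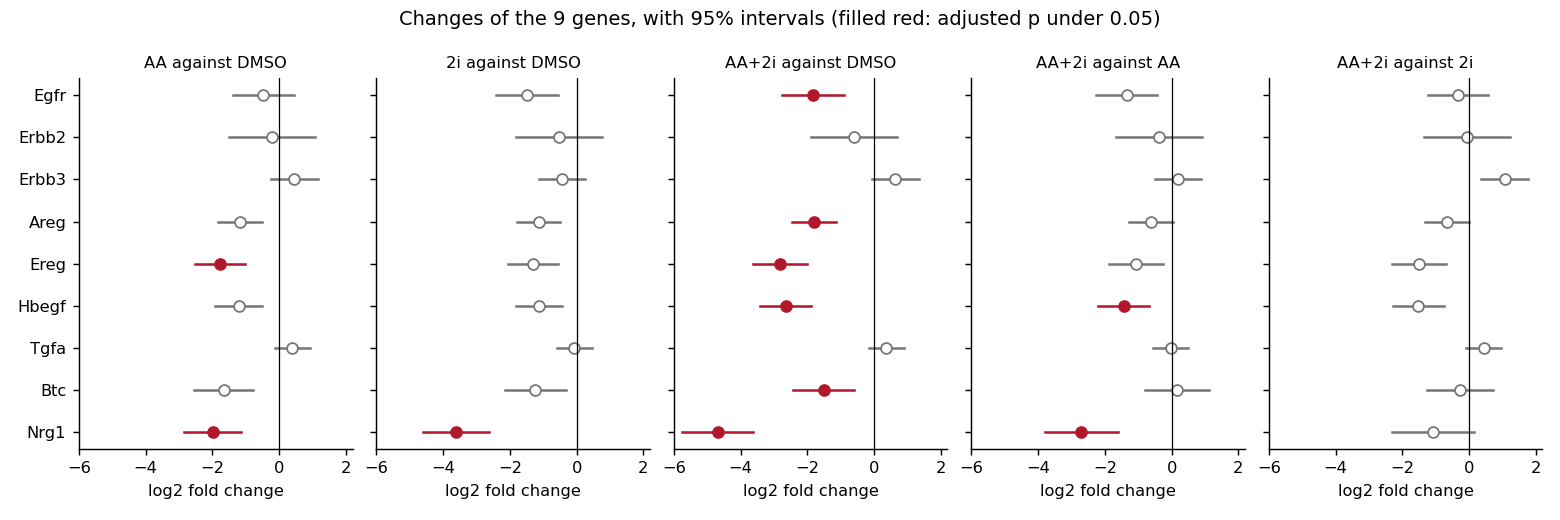
Log2 fold change of each gene (horizontal axis) with its 95% interval in 5 comparisons, where filled red points have an adjusted p below 0.05 and open grey points do not. The filled points are Ereg and Nrg1 for AA against DMSO, Nrg1 for 2i against DMSO, 6 genes for AA+2i against DMSO, Hbegf and Nrg1 for AA+2i against AA, and none for AA+2i against 2i.

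The effect of 2i was measured without AA, as 2i against DMSO, and in its presence, as AA+2i against AA. These comparisons share no library, but 1 model of all 12 libraries estimated the spread for both. Nrg1 fell in both, and Hbegf fell in the second. So 1 of 9 genes fell with 2i alone, where 4.42% of tested genes were called and 2.83% were called lower, and 2 of 9 fell on top of AA, where 6.1% were called and 3.29% were called lower. The libraries separated more often than the test called: 6 genes had all 3 values below those of DMSO with 2i, beside 14.7% of tested genes, and 5 had all 3 below those of AA with AA+2i, beside 16.8%. The medians of the 9 log2 fold changes were -1.14 and -0.63, beside -0.02 and -0.01 over all tested genes. Nrg1 passed the count filter through DMSO and AA libraries alone, and so did Btc, 1 of the 6 genes below DMSO. Where each library needed 10 counts, no member was called with 2i and Hbegf was called on top of AA, beside 366 and 507 genes in all. With 2i, DESeq2 called 5 members (1099 genes in all) and a GC correction 4 (1547). There limma called 4 on log2(TPM + 1) and on log2(TPM + 0.1) (620 and 636). On top of AA, in the same order, these called 3 (1309), 3 (1927), 1 (814) and 2 (829). Without replicate B or C no member was called in either comparison, with at most 156 genes in all.

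The effect of AA was measured as AA against DMSO and, on top of 2i, as AA+2i against 2i. Ereg and Nrg1 fell with AA alone, 2 of 9, where 1.34% of tested genes were called and 0.47% were called lower. On top of 2i no member was called by edgeR, where 0.91% of tested genes were called; 4 members had an unadjusted p below 0.05, as had 1277 of the 13400 tested genes. DESeq2 called 3 members and 468 genes in all, and limma called 0 members on log2(TPM + 1) and on log2(TPM + 0.1), with 174 and 137 genes in all. All 3 AA libraries lay below all 3 DMSO libraries for 5 members, beside 4.13% of tested genes, and all 3 AA+2i libraries lay below all 3 2i libraries for 4 members, beside 6.35%, and above them for Erbb3, beside 9.72%. The medians of the 9 log2 fold changes were -1.17 with AA and -0.33 with AA+2i against 2i, beside -0.01 and 0.0 over all tested genes. Nrg1 passed the count filter through DMSO and AA libraries alone, and Btc through DMSO A, DMSO B and AA B. Btc, 1 of the 4 members below 2i, changed there by -0.27 (SE 0.45) at low counts. Where each library needed 10 counts, a filter that removes Ereg, Btc and Nrg1, no member was called in either comparison, beside 94 and 74 genes.

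Whether AA and 2i together changed a gene by more or less than the sum of their separate changes was tested as an interaction. No member was called, against 0.0149% of tested genes. By edgeR 1 member, Btc, had an unadjusted p below 0.05, as had 309 of the 13400 tested genes. The interaction of Btc was 1.39 (SE 0.61), with an edgeR adjusted p of 1.0, and its counts were low, 4 to 14 a library in AA. DESeq2 and limma on log2(TPM + 1) and log2(TPM + 0.1) also called 0 members, where they called 26, 13 and 3 genes in all. The 95% intervals were wide, from -1.14 to 1.41 for Egfr and from -1.31 to 0.70 for Hbegf on the log2 scale.

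Among the receptors, Egfr, which binds EGF and the other EGFR ligands, had the largest range. Egfr spans chromosome 11, 16652206 to 16818161 of mm9 on the plus strand, and 2 RefSeq transcripts were counted. It measured 68.29, 75.82 and 33.82 TPM in DMSO A, B and C, and 66.29, 38.06 and 21.05 in AA. It measured 25.61, 18.28 and 12.11 TPM in 2i A, B and C, and 18.75, 16.63 and 8.51 in AA+2i. Both treatments with 2i lay wholly below DMSO, AA overlapped DMSO, and replicate C had the lowest value in each condition.

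Egfr fell 3.53-fold with AA+2i against DMSO, a log2 fold change of -1.82 (SE 0.42, adjusted p = 0.024). With 2i alone it was 2.8-fold lower and did not pass (-1.49, SE 0.42, adjusted p = 0.078), and against AA it was 2.55-fold lower with AA+2i (-1.35, SE 0.42, adjusted p = 0.0933). AA alone gave -0.47 (SE 0.41, 95% interval -1.37 to 0.44), and AA on top of 2i gave -0.33 (SE 0.41, 95% interval -1.24 to 0.57). The fall with AA+2i lost its call when DMSO A, DMSO B, AA+2i A, AA+2i B or AA+2i C was left out, with log2 fold changes of -2.0 to -1.59 and adjusted p-values of 0.0546 to 0.107. After a correction for GC content, both changes with 2i passed, at -1.43 (adjusted p = 0.0177) against DMSO and -1.22 (adjusted p = 0.0318) against AA. Both also passed in edgeR with the replicate letter as a block, at -1.47 (SE 0.16, adjusted p = 0.000573) and -1.28 (SE 0.16, adjusted p = 0.000841). Within replicates A, B and C the log2 differences of 2i from DMSO were -1.41, -1.68 and -1.31.

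Erbb2, the partner without a ligand, lies at chromosome 11, 98273784 to 98299030 of mm9 on the plus strand. It measured 4.32, 32.20 and 12.18 TPM in DMSO and 5.23, 16.46 and 17.14 in AA. The values were 7.93, 9.28 and 10.91 TPM in 2i and 10.53, 7.31 and 8.67 in AA+2i. The spread within DMSO exceeded any difference between conditions, and the log2 fold change with AA+2i was -0.59 (SE 0.59, adjusted p = 0.5). Erbb2 transcripts are 57.3% GC, and at that GC the fitted curve of log2 counts on GC content stood at -1.2 in DMSO A and at 0.74 in AA+2i C. With that curve removed, the log2 fold change of Erbb2 with AA+2i against DMSO was -1.03, with an adjusted p of 0.0193, and the other 4 comparisons between conditions were not called.

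Erbb3, the receptor for neuregulins, lies at chromosome 10, 128004579 to 128026708 of mm9 on the minus strand. It measured 5.62, 13.57 and 5.55 TPM in DMSO and 8.28, 11.65 and 12.13 in AA. The values were 5.51, 5.55 and 4.53 TPM in 2i and 14.51, 10.59 and 7.68 in AA+2i. Erbb3 was the member whose AA+2i libraries all exceeded its 2i libraries, by 1.08 on the log2 scale (SE 0.32, unadjusted p = 0.00625, adjusted p = 0.178 by edgeR). The main edgeR model did not call this change and DESeq2 did. EdgeR with a GC correction and the replicate letter as a block also called it (1.1, SE 0.29, adjusted p = 0.037). Against DMSO the change with AA+2i was 0.64 (SE 0.32, adjusted p = 0.231), and the conditions overlapped.

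The make-up of receptor RNA differed between the conditions. Egfr supplied 71.8 ± 13.5% of the summed TPM of the 3 receptors in DMSO (SD, n = 3), 60.8 ± 20.8% in AA, 54.9 ± 10.8% in 2i and 41.7 ± 7.06% in AA+2i. Its share was 87.3% in DMSO A and 83.1% in AA A, where the GC curve at Erbb2 stood at -1.2 and -0.98. In replicates B and C it was 62.4% and 65.6% in DMSO and 57.5% and 41.8% in AA. The shares were not corrected for GC content. The share of Erbb3 was 9.73 ± 2.21% in DMSO, 17.4 ± 6.85% in AA, 15.8 ± 1.46% in 2i and 31.6 ± 1.33% in AA+2i, where its lowest library, at 30.7%, was above the highest elsewhere, at 24.1% in AA. The ratio of Egfr to Erbb3 TPM went from a range of 5.59 to 12.2 in DMSO to 1.11 to 1.57 in AA+2i, without overlap. These shares and ratios are a description and were not tested; with 3 libraries against 3, the smallest p of a two-sided exact permutation test is 0.1.

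**Figure D3:**
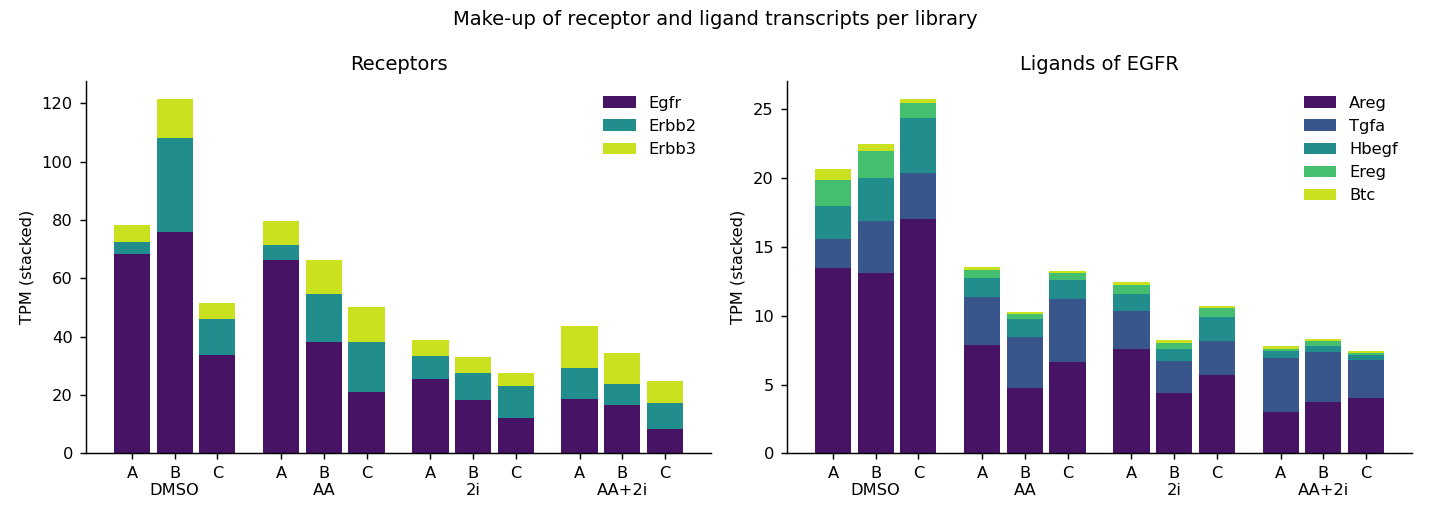
Stacked TPM per library of the 3 receptors (left) and of the 5 EGFR ligands (right), with libraries A, B and C of each condition side by side. The receptor bars are 51.5 to 122 TPM high in DMSO and 24.9 to 43.8 in AA+2i, a difference mostly in the Egfr segment, and the ligand bars are 20.7 to 25.8 TPM high in DMSO and 7.45 to 8.29 in AA+2i, while the Tgfa segment stays between 2.10 and 4.55 TPM.

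Areg encodes amphiregulin and had the highest mean of the EGFR ligands in each condition. It measured 13.48, 13.07 and 17.06 TPM in DMSO, 7.85, 4.78 and 6.67 in AA, 7.56, 4.37 and 5.70 in 2i, and 3.02, 3.75 and 4.01 in AA+2i. The 3 treatments each lay wholly below DMSO, AA and 2i overlapped each other, and AA+2i lay below both. Areg fell 3.48-fold with AA+2i against DMSO (-1.80, SE 0.30, adjusted p = 0.00473), a call kept without any single library. With 2i it was 2.2-fold lower (-1.14, SE 0.30, adjusted p = 0.0575) and with AA 2.25-fold lower (-1.17, SE 0.30, adjusted p = 0.105), neither past the threshold. Both passed after the GC correction, at adjusted p-values of 0.0324 and 0.0485.

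Ereg encodes epiregulin, which binds EGFR and ERBB4. It measured 1.88, 1.94 and 1.10 TPM in DMSO, 0.55, 0.35 and 0.52 in AA, 0.65, 0.46 and 0.62 in 2i, and 0.17, 0.31 and 0.13 in AA+2i. As for Areg, AA and 2i overlapped, between DMSO above and AA+2i below. Ereg fell 7.1-fold with AA+2i (-2.83, SE 0.37, adjusted p = 0.00113) and 3.4-fold with AA (-1.76, SE 0.34, adjusted p = 0.0328). With 2i it was 2.49-fold lower (-1.32, SE 0.34, adjusted p = 0.0543). The call with AA was lost without any one of DMSO A, AA A, 2i A, AA+2i A, DMSO B, AA B, 2i B or AA C, at adjusted p-values of 0.0551 to 0.162 and log2 fold changes of -1.87 to -1.58, and in a model of DMSO and AA alone (adjusted p = 0.225). Ereg transcripts are 39.2% GC, where the GC curve stood at 0.95 in DMSO A and -0.62 in AA+2i C on the log2 scale. With the curve removed, the edgeR changes were -2.29 (adjusted p = 0.00165) with AA+2i and -1.47 (adjusted p = 0.0354) with AA. The change with 2i was then smaller, at -0.88 (adjusted p = 0.13), and was not called.

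Hbegf encodes heparin-binding EGF-like growth factor, which binds EGFR and ERBB4. It measured 2.37, 3.15 and 3.96 TPM in DMSO, 1.37, 1.27 and 1.39 in AA, 1.18, 0.88 and 1.73 in 2i, and 0.50, 0.47 and 0.35 in AA+2i. The AA+2i libraries lay below every other library. Hbegf fell 6.27-fold with AA+2i against DMSO (-2.65, SE 0.34, adjusted p = 0.00113) and 2.71-fold with AA+2i against AA (-1.44, SE 0.34, adjusted p = 0.0296). It was 2.86-fold lower with AA+2i against 2i (-1.52, adjusted p = 0.0754), 2.19-fold lower with 2i (-1.13, adjusted p = 0.0774) and 2.31-fold lower with AA (-1.21, adjusted p = 0.118), none of them called. The call against AA was lost when any of the 6 AA or AA+2i libraries was left out, at -1.5 to -1.36 and adjusted p-values of 0.0579 to 0.12. After the GC correction the 2i change (adjusted p = 0.0399) and the change against 2i (adjusted p = 0.0372) passed.

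Tgfa encodes transforming growth factor alpha, and was the only EGFR ligand among the 5 that did not fall with AA+2i. It measured 2.10, 3.79 and 3.33 TPM in DMSO, 3.52, 3.71 and 4.55 in AA, 2.82, 2.32 and 2.48 in 2i, and 3.91, 3.60 and 2.81 in AA+2i. Each treatment overlapped DMSO. With AA+2i the log2 fold change was 0.37 (SE 0.24, adjusted p = 0.319) with a 95% interval of -0.15 to 0.89, which does not reach the falls of Areg, Ereg or Hbegf. No processing alternative or left-out library called Tgfa in any comparison.

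Btc encodes betacellulin, which binds EGFR and ERBB4, and was the lowest ligand in DMSO. It measured 0.83, 0.56 and 0.31 TPM in DMSO, 0.24, 0.18 and 0.12 in AA, 0.24, 0.20 and 0.20 in 2i, and 0.18, 0.16 and 0.15 in AA+2i. The 3 treatments lay below DMSO and close together, and the counts behind them were small, 4 to 14 a library against 7 to 35 in DMSO. Btc fell 2.84-fold with AA+2i (-1.51, SE 0.41, adjusted p = 0.0483), just inside the threshold; with AA it was 3.17-fold lower (-1.66, SE 0.41, adjusted p = 0.0881). The pooled counts gave a ratio of DMSO to AA+2i of 2.75, with a 95% exact interval of 1.59 to 5.03 that covers counting error only. The call with AA+2i was lost after the GC correction (-0.92, adjusted p = 0.0887; Btc transcripts are 40.1% GC), with DESeq2 (adjusted p = 0.0662), without a count filter (adjusted p = 0.066), and without any one of AA A, AA C, or a 2i or AA+2i library, at -1.55 to -1.47 and adjusted p-values of 0.0501 to 0.143. Without DMSO A, DMSO B or AA B, Btc did not pass the count filter.

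The summed TPM of the 5 EGFR ligands was 23.0 ± 2.58 in DMSO (SD, n = 3), 12.4 ± 1.8 in AA, 10.5 ± 2.12 in 2i and 7.84 ± 0.423 in AA+2i. The share of Tgfa in that sum went from 13.3 ± 3.32% in DMSO to 32.1 ± 5.39% in AA, 24.7 ± 3.07% in 2i and 43.8 ± 6.31% in AA+2i. Areg went the other way, from 63.2 ± 4.42% in DMSO to 51.6 ± 5.86% in AA, 55.6 ± 4.39% in 2i and 45.9 ± 7.53% in AA+2i, so that Areg and Tgfa were about level in AA+2i. Hbegf was 13.6% of the sum in DMSO and 5.6% in AA+2i. In the ligand sum all 3 treatments lay below DMSO without overlap.

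Nrg1, at chromosome 8, 32928500 to 33119581 of mm9 on the minus strand, had the largest change of the 9 genes. It measured 1.81, 3.29 and 3.68 TPM in DMSO and 0.50, 0.84 and 0.77 in AA. It measured 0.32, 0.11 and 0.20 TPM in 2i and 0.14, 0.08 and 0.07 in AA+2i. DMSO, AA and the conditions with 2i formed separate levels in descending order, and 2i and AA+2i overlapped.

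Nrg1 fell 12.2-fold with 2i (-3.61, SE 0.45, adjusted p = 0.00168), 3.98-fold with AA (-1.99, SE 0.39, adjusted p = 0.0329), 25.9-fold with AA+2i (-4.69, SE 0.49, adjusted p = 0.000357) and 6.51-fold with AA+2i against AA (-2.70, SE 0.49, adjusted p = 0.0084). AA+2i against 2i gave -1.09 (SE 0.56, 95% interval -2.31 to 0.14, adjusted p = 0.66). The sums of counts over 3 libraries were 248 in DMSO, 79 in AA, 14 in 2i and 7 in AA+2i, where each library had 2 or 3. The ratio of pooled counts, DMSO over AA+2i, was 27.2, with a 95% exact interval of 13.0 to 68.4, and DMSO over 2i it was 12.5, with an interval of 7.34 to 23.3; these cover counting error only. The call with AA was lost without any one of AA A, AA+2i A, DMSO B, AA B, AA+2i B, DMSO C, AA C or AA+2i C, at -2.15 to -1.73 and adjusted p-values of 0.0518 to 0.118, and in a model of DMSO and AA alone (adjusted p = 0.225). The other 3 calls were kept without any single library, and the one against AA was lost with limma on log2(TPM + 1) (adjusted p = 0.0593). Only 1 RefSeq transcript of Nrg1 was counted, and reads of other neuregulin 1 isoforms were not analysed here.

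Ereg, Areg and Btc are neighbours on chromosome 5, in a cluster with Epgn, which encodes epigen, a further EGFR ligand. In mm9, Epgn runs from 91456490 to 91464241, Ereg from 91503643 to 91522675 and Areg from 91568641 to 91577458 on the plus strand, and Btc from 91786287 to 91831939 on the minus strand, so that the 4 genes span 375450 bases. With AA+2i against DMSO, Ereg, Areg and Btc fell as given above, whereas Epgn was at 1.75 ± 0.198 TPM in DMSO and 1.79 ± 0.255 in AA+2i (log2 fold change 0.24, SE 0.3, adjusted p = 0.59). Epgn was not called in any comparison, and the difference between Epgn and its neighbours was not tested. Of the other genes starting within 250 kb of the cluster, Mthfd2l, a mitochondrial folate enzyme, and the chemokine Cxcl1 were not called, with adjusted p-values of 0.115 and 0.0836 for AA+2i against DMSO. Parm1, a transmembrane mucin-like protein, rose with 2i (1.63, SE 0.3, adjusted p = 0.0114), with AA+2i against AA (1.80, SE 0.3, adjusted p = 0.00517) and with AA+2i against DMSO (2.05, SE 0.3, adjusted p = 0.00229).

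**Figure D4:**
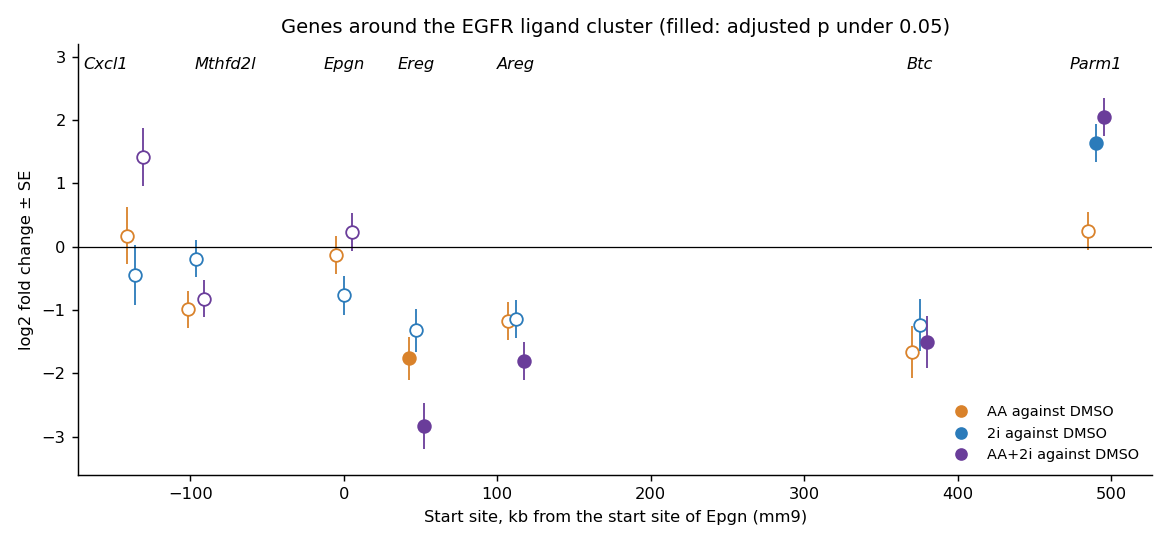
Log2 fold change ± SE (vertical axis) of the tested genes around the ligand cluster, by the distance of each start site from that of Epgn in kb, for AA, 2i and AA+2i against DMSO, drawn slightly apart sideways so that they do not hide each other; filled points have an adjusted p below 0.05. Ereg, Areg and Btc lie below 0 in all 3 comparisons, Epgn stays within -0.77 to 0.24, and Parm1 lies above 0.

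The promoters of 2 cluster genes of which one fell with AA+2i and one was not called, Areg and Epgn, are shown with that of Tgfa, which was not called. Each runs from 250 bases before to 50 bases after the start site in RefSeq on GRCm38.p6, a later build than mm9, and is written 5′ to 3′ on the gene's strand, with motif matches in capitals. Promoter sequences were found for 5 of the 9 members, namely Egfr, Erbb2, Areg, Tgfa and Btc. The windows are chr5:91139349-91139648 for Areg, chr5:91027267-91027566 for Epgn and chr6:86194972-86195271 for Tgfa, all on the plus strand.
Areg: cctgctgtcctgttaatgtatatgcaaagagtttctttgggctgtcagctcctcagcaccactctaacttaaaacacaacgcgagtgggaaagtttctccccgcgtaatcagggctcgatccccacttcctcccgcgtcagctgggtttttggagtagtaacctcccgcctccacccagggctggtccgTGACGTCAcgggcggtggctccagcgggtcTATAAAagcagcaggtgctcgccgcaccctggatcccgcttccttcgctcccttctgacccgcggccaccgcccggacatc
Epgn: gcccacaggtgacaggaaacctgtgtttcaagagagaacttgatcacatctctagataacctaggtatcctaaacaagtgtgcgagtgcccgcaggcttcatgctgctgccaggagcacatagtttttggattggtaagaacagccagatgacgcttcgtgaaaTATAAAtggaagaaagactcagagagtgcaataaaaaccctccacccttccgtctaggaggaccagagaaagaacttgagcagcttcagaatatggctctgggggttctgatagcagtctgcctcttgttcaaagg
Tgfa: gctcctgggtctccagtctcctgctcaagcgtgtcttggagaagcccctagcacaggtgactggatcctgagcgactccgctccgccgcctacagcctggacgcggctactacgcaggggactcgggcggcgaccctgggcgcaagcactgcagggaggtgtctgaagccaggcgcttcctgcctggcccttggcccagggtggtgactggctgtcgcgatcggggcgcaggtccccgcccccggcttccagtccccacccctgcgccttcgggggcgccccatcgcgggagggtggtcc

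The motifs searched, on both strands and by their letters alone, were the cyclic AMP response element TGACGTCA, which 1.79% of 32851 promoters of the same length hold, the AP-1 site TGANTCA (7.81%), the TCF/LEF site CTTTGAT (3.73%), the EGR site GCGNGGGCG (5.55%), the TATA box TATAAA (13.62%) and the ETS site CCGGAAGT (3.89%). The Areg promoter holds TGACGTCA at positions -61 to -54 from the start site and TATAAA at -31 to -26. The Epgn promoter holds TATAAA at -86 to -81. The Tgfa, Egfr, Erbb2 and Btc windows hold none of these letters. A match is a description of the letters in the window and not of a bound factor.

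Around the receptors and ligands, most of the pathway genes described here were not called. None of 12 genes of receptor endocytosis and recycling was called by edgeR in any of the 6 contrasts, and the counts at an unadjusted p below 0.05, with DESeq2 and with limma were 0 as well. Their median log2 fold change with AA+2i against DMSO was -0.20. Of 17 tested adaptor and receptor-proximal genes, Gab2, a docking protein, rose with AA+2i against DMSO (0.80, SE 0.21, adjusted p = 0.0359) and Pik3cb, a catalytic subunit of PI3-kinase, fell (-0.90, SE 0.23, adjusted p = 0.0337). The 3 tested ligands outside the members, Egf, Epgn and Nrg4, were not called in any contrast by edgeR, DESeq2 or limma, and at most 1 of them in a contrast had an unadjusted p below 0.05.

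Among 8 tested genes of ligand shedding and secretion, 1 rose and 2 fell with 2i. Adam12, a protease that can release HB-EGF, rose with 2i from 0.377 ± 0.0723 to 3.8 ± 1.15 TPM (log2 fold change 3.5, SE 0.28, adjusted p = 0.000116) and fell with AA to 0.0733 ± 0.0153 TPM (-2.33, SE 0.30, adjusted p = 0.00484). Timp3, an inhibitor of ADAM17, fell with 2i from 64.5 ± 19.0 to 14.5 ± 3.93 TPM (-1.97, SE 0.34, adjusted p = 0.00795) and was at 7.55 ± 0.568 TPM in AA+2i (-2.89 against DMSO, adjusted p = 0.000809). Adam19, a neuregulin-processing protease, fell with 2i (-1.0, SE 0.19, adjusted p = 0.012) and rose with AA+2i against 2i (0.99, SE 0.19, adjusted p = 0.0347).

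Of 6 tested co-receptors and heparan sulphate carriers, Cd9, a tetraspanin that associates with the HB-EGF precursor, fell with 2i (-0.87, SE 0.21, adjusted p = 0.0406). Cd44, a hyaluronan receptor that can carry HB-EGF, fell with AA+2i against DMSO (-1.59, SE 0.41, adjusted p = 0.0358), and Gpc1, a glypican, rose (2.86, SE 0.70, adjusted p = 0.0304). Of 15 receptor inhibitors and ubiquitin ligases, 3 fell and 1 rose with AA+2i against DMSO. Those that fell were Errfi1, a feedback inhibitor of EGFR (-1.0, SE 0.22, adjusted p = 0.017), Lrig3 (-1.32, SE 0.23, adjusted p = 0.0056) and Sh3kbp1, an adaptor of CBL (-1.73, SE 0.38, adjusted p = 0.0182). Lrrn1, a leucine-rich repeat membrane protein, rose (1.96, SE 0.46, adjusted p = 0.0254) from 0.09 to 0.32 TPM.

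Genes downstream of the inhibited kinases served as a check of the labels. Of 14 tested ERK output genes, 3 fell with 2i and 4 with AA+2i against AA. Dusp6, a phosphatase of ERK, went from 62.5 ± 8.65 to 6.89 ± 0.233 TPM with 2i (-3.00, SE 0.21, adjusted p = 4.63e-05), and Dusp4 and Spry4 fell too (-1.58 and -1.22, adjusted p = 0.00184 and 0.00372). Other genes of the list did not pass, among them Egr1 and Fos, named here after their values were seen. Egr1 was at 0.22 to 2.72 TPM in 2i and 0.35 to 54.76 in AA+2i, beside 31.95 to 116.4 in DMSO, and Fos was at 4.06 to 12.09 TPM in 2i and 6.99 to 166.8 in AA+2i, beside 22.24 to 104.62 in DMSO. Of 8 tested Wnt output genes, 3 rose with 2i, among them Axin2 at 5.83 (SE 0.77, adjusted p = 0.00202). With AA alone edgeR called 0 of either list. Of the ERK output genes 1 had an unadjusted p below 0.05 and DESeq2 called 1, these counts were 0 for the Wnt output genes, and limma called 0 of both.

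Markers of other cells that the cultures could hold were measured beside these results. The summed TPM of 12 fibroblast markers was 348 to 518 in DMSO, 243 to 348 in AA, 42.4 to 54.3 in 2i and 34.8 to 44.5 in AA+2i. Most of it was S100a4, which fell with AA+2i, at 396 ± 96.0 TPM in DMSO and 29.2 ± 6.59 in AA+2i, while Lum was at 0 in every library and Col1a1, Col1a2 and Col3a1 had means of at most 2.02 TPM. Thy1 was at 5.13 ± 2.31 TPM in DMSO, 12.6 ± 5.14 in AA, 1.15 ± 0.574 in 2i and 3.8 ± 1.41 in AA+2i, and Twist1 at 2.36, 1.33, 1.23 and 0.93 TPM in the same order, neither called in any comparison. Col3a1 rose with AA+2i, from 0.133 to 0.56 TPM (adjusted p = 0.0205). Epithelial markers summed to 172 to 376 TPM in DMSO, 337 to 691 in AA, 170 to 231 in 2i and 471 to 680 in AA+2i, and 4 of 12 rose with AA+2i against DMSO, among them Cdh1, which encodes E-cadherin (1.71, SE 0.20, adjusted p = 0.000683). Primitive endoderm markers summed to at most 1.64 TPM and trophoblast markers to at most 14.2 TPM in any library. Of 10 pluripotency markers, 5 rose and 1 fell with AA+2i against DMSO, Nanog going from 4.41 ± 2.37 to 36.6 ± 4.62 TPM. The part of cell composition in the changes of receptors and ligands was not tested.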

How the data were processed

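RNA of 12 libraries was sequenced and quantified by the authors. They removed low-quality reads, trimmed read starts, and aligned to RefSeq genes of mm9 with Bowtie (Bowtie2 in the study's methods) and RSEM 1.2.4, without strand. The deposited expected counts are RSEM's raw estimates, often with decimals; the deposited TPM and FPKM are scaled per library, and 1 malformed TPM cell, of no member, was recomputed from the authors' FPKM.

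Expected counts were rounded and fitted with edgeR 4.0.16 in R 4.3.3 (quasi-likelihood, RLE factors, 1 model of the 4 conditions, 8 residual degrees of freedom), on the 13400 of 20325 genes that reached 10 counts in 3 or more libraries. Standard errors were derived from the log2 fold change and the F statistic, so they restate the test. Replicates were grouped by the labels, which name them biological; depth was 16173322 to 54392719 expected counts, and intervals on pooled counts cover counting error only. Checks on simulated data were run first. Alternatives were TMM factors, DESeq2 1.42.0, limma 3.58.1 on log2(TPM + 1) and log2(TPM + 0.1), other count filters, a model of only the groups compared, a GC correction (loess of each library's deviation in log2 CPM on transcript GC, for 99.28% of tested genes), a replicate block, and leaving out libraries. The study used EB-seq for each condition against DMSO, which was not run here.

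The members and gene lists were chosen with earlier results of these data known. All 9 members are named; of each other list, at most 4 genes with the smallest adjusted p among those called are named, and marker lists are given by sums and defining genes. Likeness is Pearson's r of log2 CPM over the 12 libraries (prior count 2). Mthfd2l, Cxcl1 and Parm1 were named for their position near the chromosome 5 cluster. One gene list of the signalling cascade is not reported here.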

Additional observations from a re-analysis of the deposited data

How the results depend on the processing

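No call reversed under the alternatives run. Of the gene-level values under an alternative, 1173 stayed on their side of the threshold, 53 gained a call and 62 lost one. A member that a count filter removed had no value, so calls lost in that way are not among the 62. The number of members called for 2i against DMSO, 1 as reported, was 2 with TMM factors, 5 with DESeq2, 4 with limma at either pseudocount, 4 with the GC correction and 0 where each library needed 10 counts, a filter that removes Ereg, Btc and Nrg1. Over all genes these settings called 598, 1099, 620 and 636, 1547 and 366, beside 592 as reported. For AA+2i against AA, reported as 2, it was 1 with limma on log2(TPM + 1) and 1 with that filter, and 3 with DESeq2 and with the GC correction, where Egfr was added (817 genes as reported, then 814, 507, 1309 and 1927). For AA against DMSO, reported as 2, it was 4 with DESeq2, 4 with the GC correction, 0 with that filter and 0 in a model of only the groups compared, which has fewer libraries and called 0 of all genes (179 genes as reported, 454 with DESeq2, 521 with the GC correction and 94 with that filter). For AA+2i against 2i, reported as 0, it was 3 with DESeq2 and 1 with the GC correction (122 genes as reported, then 468 and 576). For AA+2i against DMSO, reported as 6, it was 3 with that filter. It was 5, without Btc, with DESeq2, without a count filter and in a model of only the groups compared. With the GC correction it was 6, with Erbb2 in place of Btc (1117 genes as reported, then 729, 1879, 1037, 581 and 2571). For the interaction it was 0 under each alternative run, and a model of only the groups compared does not exist for it.

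Leaving out replicates or single libraries gave 0 to 2 members for 2i against DMSO, 0 to 2 for AA+2i against AA, 0 to 2 for AA against DMSO, 0 for AA+2i against 2i and 0 to 6 for AA+2i against DMSO, where 0 arose without replicate B, which holds the 2 deepest libraries, and 18 of all genes were then called. Counts over all genes also moved: for AA+2i against DMSO, 1117 were called as reported, 1879 with DESeq2, 4229 with the replicate block, 2571 with the GC correction, 729 with that filter and 581 in the model of only the groups compared. Without replicates A, B and C in turn, 271, 11 and 52 of all genes were called for 2i against DMSO. For AA+2i against AA they were 517, 7 and 156. The counts were 33, 0 and 4 for AA against DMSO, and 12, 0 and 0 for AA+2i against 2i. For AA against DMSO, 0 members also arose without AA A, AA+2i A, DMSO B, AA B or AA C, with 56 to 156 genes called in all. The cause of these shifts was not tested.

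With the replicate letter as a block, 5 members were called for 2i against DMSO, 5 for AA against DMSO, 1 for AA+2i against 2i, 3 for AA+2i against AA and 6 for AA+2i against DMSO; with the block and the GC correction together the first 3 were 5, 6 and 3. Over all genes the block called 1782, 594, 606, 1992 and 4229 in these comparisons, and with the GC correction the first 3 were 3298, 1459 and 1456. Among the members gaining a call under the block, for Egfr, 2i against DMSO gave -1.47 (adjusted p = 0.000573), and for Egfr, AA+2i against AA gave -1.28 (adjusted p = 0.000841). Deviations of same-letter libraries correlated at a mean of 0.401 over 18 pairs, 15 of them over 0.1 and the lowest -0.588. Those of different-letter libraries had a mean of -0.196 over 36 pairs, 9 of them over 0.1. Of the 12 libraries, 11 were closest to one of their own letter. The labels do not say what libraries of 1 letter share, so the block was kept as an alternative to the main model. Low counts limit Btc and Nrg1. The log2(TPM + 1) scale, which adds 1 to low TPM values, shrinks the changes of the low members with AA+2i against DMSO. There they were -0.42 for Btc, -1.81 for Nrg1, -1.12 for Ereg and -1.51 for Hbegf, beside -1.94 for Egfr and -1.76 for Areg.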

Other observations

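The genes whose log2 CPM over the 12 libraries was most like that of Egfr were Enpp1 (r = 0.995), Osmr (r = 0.988), Heca (r = 0.987), Tmem194 (r = 0.986) and Adam23 (r = 0.986). For the ligands that fell, the nearest were Coch for Areg (r = 0.924), Gabra2 for Ereg (r = 0.954), Prss23 for Hbegf (r = 0.965) and Axl for Nrg1 (r = 0.961). Tgfa was most like Cgn (r = 0.918), Erbb3 most like Igsf3 (r = 0.938), Erbb2 most like Slc12a4 (r = 0.981) and Btc most like Ptprz1 (r = 0.922). These were the highest values out of all tested genes, and the libraries share conditions, depth and GC content, so they are descriptions.

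Among the members themselves, Areg, Ereg and Hbegf had correlations of 0.88 to 0.90 with each other over the 12 libraries, and Hbegf and Nrg1 had 0.88. Egfr was closest to Nrg1 (r = 0.76). Tgfa and Erbb3 had 0.78, while Tgfa had -0.58 with Ereg and -0.74 with Btc. Among the receptors, Egfr had -0.17 with Erbb2 and -0.1 with Erbb3, and Erbb2 had 0.44 with Erbb3.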
